A study of Bos taurus with 36 samples.

Results

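The neutrophil and granule genes described here are 9 genes that cattle neutrophils carry as cytoplasmic proteins, granule contents or surface receptors, namely S100A8, S100A9, S100A12, MMP9, LTF, CSF3R, ITGAM, MPO and ELANE. They were found in the count table as the rows whose Entrez gene has one of these symbols in the bovine RefSeq gene table. Of the 9 genes, 8 had a row, out of 35092 rows in all, and CSF3R was not matched to a row and is not analysed here. Their levels were examined in the blood of pregnant heifers, in relation to the weight of the fetus, and as traces of granulocytes in the fetal liver and other organs.

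Organs came from bovine fetuses, all of them male, at Day 42 of gestation, and blood from their recipient heifers. All recipients received a Day 7 embryo. In the group ET_D7 the recipient was on Day 7 of the cycle (synchronous transfer), and in the group ET_D9 on Day 9 (asynchronous transfer). The 5 ET_D7 fetuses weighed from 1.253 to 1.37 g and the 5 ET_D9 fetuses from 1.396 to 1.69 g, so weight and transfer group cannot be told apart by their ranges. Fetuses are numbered by weight, from 1 (the lightest) to 10 (the heaviest), and fetuses 6 to 10 are those of ET_D9. Each animal gave at most 1 library per tissue, with 10 libraries of maternal blood, 9 of heart, 9 labelled gonads and 8 of liver. There was no liver library of fetuses 6 and 7, no heart library of fetus 7 and no library labelled gonads of fetus 2.

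Neutrophils are short-lived white blood cells that mature in blood-forming tissue, store proteins in several kinds of granule and then circulate. During maturation the genes of the azurophil granules, such as MPO and ELANE, are transcribed first, those of the specific granules, such as LTF and CAMP, next, and that of MMP9 later, whereas S100A8, S100A9 and S100A12 (the calgranulins) remain abundantly transcribed in circulating neutrophils and monocytes. The fetal liver is a site of blood formation, while the heart is not.

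Levels are given as raw counts or as CPM, counts per 1000000 counts after edgeR's TMM scaling. The blood and the organ libraries were prepared with different kits and scaled separately, so their levels are given side by side and not compared. Total counts ranged from 26602415 to 40812354 in blood, where 5 libraries (fetuses 2, 3, 6, 9 and 10) held at least 40516154 and the other 5 no more than 30393051, and from 18231089 to 39649051 over the organs. Even numbers made up 82.0% to 85.6% of the blood counts between 1 and 100, against 48.8% to 68.2% in the organs. The blood libraries of fetuses 2 and 5 held 144426 and 29233 counts of MYH7, a muscle myosin, against at most 701 in the others. HBB, a beta globin gene, ranged from 5547 to 255769 counts in blood. In the liver, the libraries of fetuses 1 and 2 differed by less than counting error, as did the libraries labelled gonads of fetuses 6 and 8. Each such pair was counted as 1 sample in means, which leaves n = 7 livers, 8 labelled gonads and 9 hearts. The edgeR and DESeq2 tests counted each library of such a pair as its own sample unless averaging is stated. The liver library of fetus 9 and the heart library of fetus 1 lay within counting error of a weighted sum of others of their organ. In the liver 867 genes had at most 2 counts in 1 library and at least 300 in another, against 87 in blood, 36 in the heart and 18 in the labelled gonads.

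The labelled tissues were checked with marker genes. All 9 lymphocyte markers were present in every blood library, with a summed level from 1549 to 2034 CPM, and the 6 hepatocyte markers summed to at most 0.450 CPM there. The 6 hepatocyte markers summed to between 30060 and 56260 CPM in the liver and the 5 cardiomyocyte markers to between 34110 and 48480 CPM in the heart. The libraries labelled gonads did not carry the defining gonad marker GATA4, with 0 to 6 counts against 5296 to 9073 in the heart, and held 19 to 66 counts of NR5A1, the regulator of steroid-producing cells. The gonad markers SOX9 and AMH had 14 to 364 and 55 to 112 counts there, and 23 to 241 and 59 to 151 in the heart. These libraries held 3979 to 7720 counts of PAX2 and 1478 to 2785 of SIX2, regulators of kidney development that were looked up after the values were seen. WT1 and FOXD1, looked up with them, had 4024 to 8717 and 2564 to 3712 counts. They are called the libraries labelled gonads here.

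The calgranulins are calcium-binding proteins that make up much of the soluble protein of the neutrophil. Their genes S100A8, S100A12 and S100A9 follow one another in the RefSeq gene table of another assembly (ARS-UCD2.0). S100A12 (Entrez 282467) was at 1022, 945, 1875, 899 and 883 CPM in the blood of fetuses 1 to 5, and at 1503, 713, 1195, 946 and 1416 CPM in that of fetuses 6 to 10. The highest library was fetus 3 and the lowest fetus 7, and the 2 transfer groups overlapped over most of their range. S100A9 (Entrez 532569) was at 231, 214, 424, 184 and 217 CPM in ET_D7 and at 411, 134, 290, 216 and 364 CPM in ET_D9. Fetus 3 was again the highest and fetus 7 the lowest. S100A8 (Entrez 616818) ranged from 24.0 to 80.1 CPM with a median of 44.8 CPM. Its extremes fell in the same libraries. The highest 3 libraries of S100A12, those of fetuses 3, 6 and 10, all had the greater depth, and the part of depth in its level was not tested.

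The mean over the 10 blood libraries was 46.4 ± 14.4 CPM for S100A8 (SD, n = 10), 269 ± 99.5 CPM for S100A9 and 1140 ± 357 CPM for S100A12. The highest library exceeded the lowest by 3.34 times for S100A8, 3.17 times for S100A9 and 2.63 times for S100A12.

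MMP9 (Entrez 282871), the gelatinase of the gelatinase granules, ranged from 10.99 to 26.1 CPM in blood, with a median of 15.5 CPM and a mean of 17.3 ± 5.20 CPM (SD, n = 10). Fetuses 3, 6 and 8 had the highest MMP9 levels and fetus 7 the lowest. LTF (Entrez 280846), lactoferrin, the iron-binding protein of the specific granules, was at 20 to 124 counts in blood, or 0.638 to 4.16 CPM. Its coefficient of variation was 65.4%, against 30.0% for MMP9. Such counts carry a larger counting error than the 292 to 1036 counts of MMP9, and its part in the spread of LTF was not tested.

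ITGAM (Entrez 407124) encodes the CD11b chain of an adhesion receptor of neutrophils, eosinophils and monocytes. It was at 212, 334, 294, 304 and 227 CPM in ET_D7 and at 356, 647, 333, 201 and 266 CPM in ET_D9. The library of fetus 7 stood above all others, and the other 9 lay between 201 and 356 CPM.

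MPO (Entrez 511206), myeloperoxidase, the peroxidase of the azurophil granules, varied more than any other of the 8 genes in blood, with a coefficient of variation of 109%. It was at 11.1, 8.14, 5.70, 13.6 and 7.94 CPM in ET_D7 and at 33.1, 73.8, 17.2, 9.81 and 10.4 CPM in ET_D9. Fetuses 6, 7 and 8 lay above every ET_D7 library, and fetuses 9 and 10 lay among them. MPO is a paralog of EPX, the eosinophil peroxidase. EPX was not matched to a row, and reads shared between the 2 genes would be uncertain. ELANE (Entrez 100126050), neutrophil elastase, the serine protease of the same granules, had only 8 to 44 counts per blood library, or 0.292 to 1.48 CPM.

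**Figure D1:**
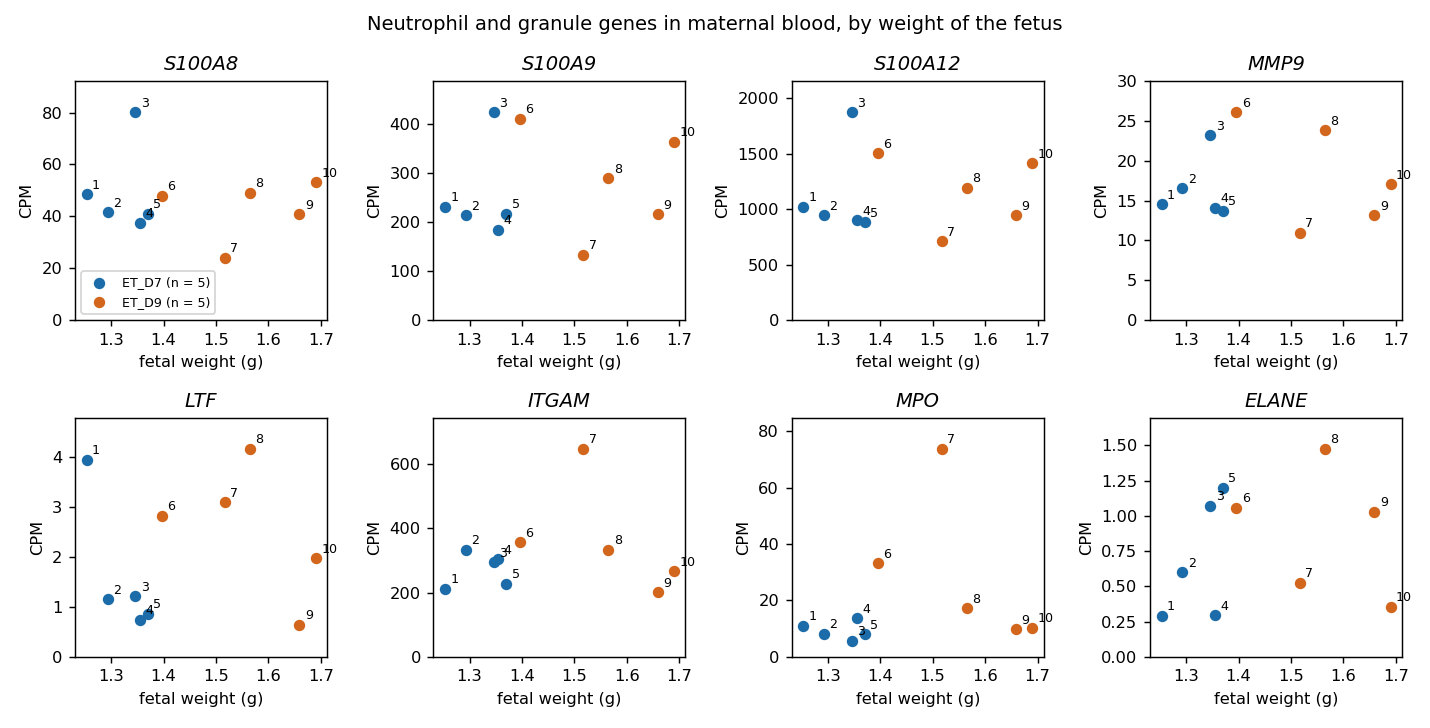
Level (CPM, linear axes from 0) of each of the 8 genes in the 10 maternal blood libraries against the weight of the fetus (g), with 1 point per library, numbered by fetus and coloured by transfer group (5 libraries each). The calgranulins peak in fetus 3 and are lowest in fetus 7, where MPO (73.8 CPM) and ITGAM (647 CPM) are highest.

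The study asked whether genes in maternal blood change with the weight of the fetus. None of the 8 genes varied with fetal weight in blood by a spline on weight with 3 degrees of freedom, at an adjusted p under 0.05 (edgeR's quasi-likelihood test with Benjamini-Hochberg adjustment over 16284 genes), where 21 of all genes tested did, or 0.129%. At an unadjusted p under 0.05 there were 2 of 8, MPO (p = 0.00916, adjusted p = 0.369, edgeR) and ITGAM (p = 0.0329, adjusted p = 0.482, edgeR), against 9.77% of all genes. DESeq2 also called 0 of the 8 genes at the adjusted threshold and 2 at the unadjusted threshold. MPO passed when the blood library of fetus 8 was left out (adjusted p = 0.0474, edgeR), and in no other setting. Differences in the share of neutrophils and in RNA per cell cannot be told apart in such bulk samples, here or in any result that follows.

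A straight line gave a similar count. The slopes of the 8 genes on fetal weight lay between -0.04 and 0.27 on the log2 scale per 0.1 g, with a median of 0.02 against 0.00 over all genes. None of the 8 passed, adjusted or unadjusted, by edgeR or by DESeq2, where edgeR called 0% of all genes at the adjusted threshold and 9.69% at the unadjusted. The slope of S100A12 was 0.00 (SE 0.084), that of S100A9 0.02 (SE 0.10) and that of S100A8 -0.04 (SE 0.083). MPO had the steepest slope, 0.27 (SE 0.29, adjusted p = 0.799, edgeR), and it was 0.02 without the library of fetus 7, 0.47 without fetus 9 and 0.51 without fetus 10. With transfer group as a covariate, 1 of the 8 genes passed at an unadjusted p under 0.05 and 0 at the adjusted threshold (edgeR).

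Between the transfer groups the largest log2 difference was that of MPO, 1.63 higher in ET_D9 (SE 0.52), from a mean of 9.29 ± 3.08 CPM in ET_D7 (SD, n = 5) and 28.9 ± 26.8 CPM in ET_D9 (SD, n = 5). Its unadjusted p was 0.00828 and its adjusted p 0.532 (edgeR). Without fetus 7 the difference fell to 0.92. None of the 8 genes passed at the adjusted threshold, nor did any of the 16284 genes tested (0%). MPO alone passed at an unadjusted p under 0.05, against 7.6% of all genes, and DESeq2 gave the same 2 counts. The unadjusted count was 0 without the 2 libraries with muscle transcripts (fetuses 2 and 5, both ET_D7), and 2 without fetus 1 or without fetus 9 (edgeR). The median log2 difference of the 8 genes was 0.25, against 0.01 over all genes. LTF differed by 0.68 (SE 0.55), ITGAM by 0.39 (SE 0.26), ELANE by 0.35 (SE 0.53), S100A9 by 0.15 (SE 0.29), MMP9 by 0.15 (SE 0.24), S100A12 by 0.04 (SE 0.24) and S100A8 by -0.21 (SE 0.24). Each of these 7 differences was smaller than 2 times its standard error. Single libraries moved some of them by over 1.5 times, with ITGAM at 0.07 without fetus 7, LTF at 1.34 without fetus 1 and ELANE at 0.09 without fetus 8.

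**Figure D2:**
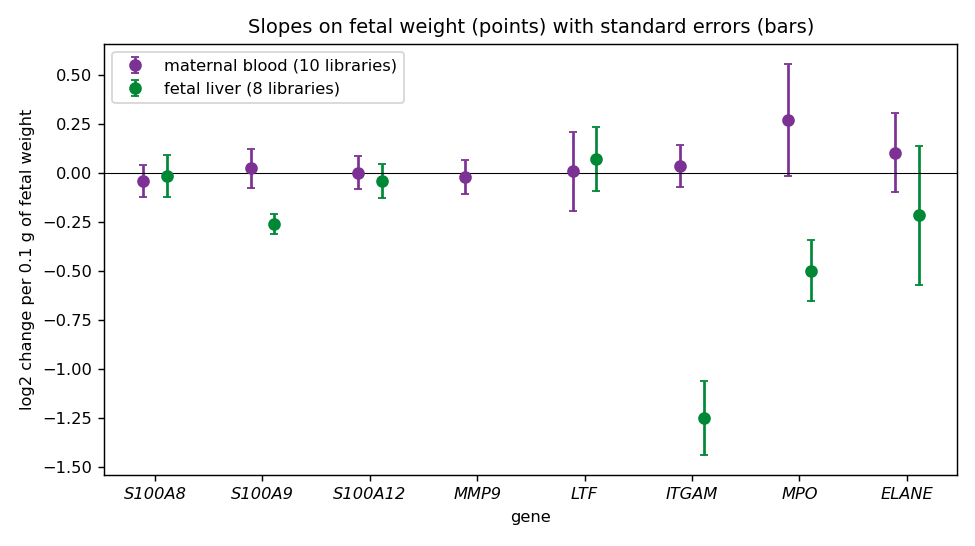
Slope of each gene on fetal weight (log2 change per 0.1 g) in maternal blood (10 libraries, purple) and in fetal liver (8 libraries, green), with points for estimates and bars for standard errors from edgeR's quasi-likelihood fit. The blood slopes lie near 0 apart from the wide MPO estimate, and in the liver ITGAM (-1.25) and S100A9 (-0.26) lie below 0; MMP9 was too low in the liver to be fitted.

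No gene of the other granule, receptor or cell type lists passed at the adjusted threshold in any of the 3 blood comparisons by edgeR (DESeq2 was not used for these lists). At an unadjusted p under 0.05, 2 of 6 azurophil granule genes differed between transfer groups, 1 of 7 specific granule genes, 3 of 5 gelatinase granule genes, 1 of 12 receptor and adhesion genes, 3 of 6 NADPH oxidase genes and 1 of 6 granulocyte regulators, against the 7.6% of all genes. Of the 6 azurophil granule genes tested, MPO and LYZ (lysozyme) differed between transfer groups at an unadjusted p under 0.05, with log2 differences of 1.63 and -0.36. Their adjusted p-values were 0.532 and 0.625 (edgeR). The median log2 difference was 0.58 for the azurophil list, 0.28 for the specific, 0.15 for the gelatinase, 0.18 for the receptor, 0.23 for the oxidase and 0.02 for the regulator list. Of the gelatinase list, PADI4, the enzyme that citrullinates histones, differed by 1.12 (SE 0.41) and MMP25, a membrane-bound protease, by 0.52 (SE 0.23), while SLC11A1, a metal transporter of phagocytes, differed by -0.40 (SE 0.18), with means of 107 CPM in ET_D7 and 81.6 CPM in ET_D9. CEBPE, a transcription factor of late granulocyte maturation, differed by 1.08 (SE 0.42), with an adjusted p of 0.615 (edgeR). As with MPO, fetuses 6, 7 and 8 lay above every ET_D7 library for PADI4 and CEBPE, and fetuses 9 and 10 did not. PADI4 was at 75.1 to 105 CPM in ET_D7, and at 71.5 and 79.8 CPM in fetuses 9 and 10. CEBPE was at 5.92 to 17.3 CPM in ET_D7, and at 12.1 and 9.88 CPM in fetuses 9 and 10. PGLYRP1, a bacteria-binding protein of the specific granules, differed by 1.41 (SE 0.57) at 2 to 58 counts.

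The eosinophil markers moved with MPO. IL5RA, the interleukin 5 receptor that marks eosinophils, was at 38.8, 35.1, 26.02, 56.8 and 38.8 CPM in ET_D7 and at 62.7, 144, 62.8, 44.0 and 31.1 CPM in ET_D9. ALOX15, a lipoxygenase abundant in eosinophils, was at 284, 273, 195, 344 and 153 CPM in ET_D7 and at 524, 1161, 514, 260 and 276 CPM in ET_D9. Fetus 7 was the highest library for both, as it was for MPO. Of the 6 eosinophil markers only 3 had a row, and the third, CCR3, had 0 counts in every library. The summed level of the list ran from 192 to 401 CPM in ET_D7 and from 304 to 1304 CPM in ET_D9. The log2 difference between transfer groups was 1.13 for ALOX15 (SE 0.38) and 0.81 for IL5RA (SE 0.35), with adjusted p-values of 0.551 and 0.636 (edgeR). The 11 monocyte and macrophage markers had a summed level of 499.7 to 597 CPM in ET_D7 and 285 to 564 CPM in ET_D9, and 0 of the 9 tested differed at the adjusted threshold and 2 at the unadjusted (edgeR). Their sum was lowest in fetus 7, where the lymphocyte markers were also lowest. The part of other cell types in the MPO level was not tested.

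Relations between genes across the 10 blood libraries were computed for the 28 pairs of the 8 genes. Each gene was also set against IL5RA and ALOX15, which gave 44 relations in all. Their p-values came from 100000 permutations and were adjusted over the 44. These relations were not among the planned tests, and IL5RA and ALOX15 were the only partners taken from the other lists. The p-values do not account for that choice. The 3 calgranulins moved together. S100A9 and S100A12 had a Pearson r of 0.974 (permutation p = 2e-05, adjusted p = 0.00088) and a Spearman rho of 0.927 (permutation p = 0.00032). Without fetuses 3 and 6, the libraries farthest from the median of S100A9, r was 0.979. S100A8 had an r of 0.881 with S100A9 (permutation p = 0.00011, adjusted p = 0.00121) and of 0.903 with S100A12 (permutation p = 0.00022, adjusted p = 0.00194). The matching rho values were 0.891 (permutation p = 0.00126) and 0.867 (permutation p = 0.00218), and r was 0.818 and 0.825 without fetuses 3 and 7. MMP9 followed them, with an r of 0.873 with S100A9 (permutation p = 0.00138, adjusted p = 0.0101) and of 0.856 with S100A12 (permutation p = 0.00213, adjusted p = 0.0134). Here rho was 0.806 (permutation p = 0.00721) and 0.842 (permutation p = 0.00364), and r was 0.753 and 0.762 without fetuses 3 and 6. S100A8 and MMP9 had the weakest relation of the 4 genes, with an r of 0.732 (permutation p = 0.00904, adjusted p = 0.0416) and a rho of 0.782 (permutation p = 0.0106, adjusted p = 0.0585), and r was 0.577 without fetuses 3 and 7. Of the 28 pairs, 7 passed at an adjusted p under 0.05, 6 of them among the calgranulins and MMP9. Each depth class holds 5 blood libraries, and no correlation was computed over so few.

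No relation of MPO with a calgranulin passed the test. Its r was -0.349 with S100A12 (permutation p = 0.325, adjusted p = 0.567, rho -0.152), -0.361 with S100A9 (permutation p = 0.310, adjusted p = 0.567, rho -0.248) and -0.683 with S100A8 (permutation p = 0.0390, adjusted p = 0.132, rho -0.345). The last was 0.334 without fetuses 3 and 7. With ELANE, the other azurophil gene of the 8, its r was -0.072 (permutation p = 0.850, rho -0.236). With ALOX15 the r of MPO was 0.949 (permutation p = 0.0001, adjusted p = 0.00121) and rho 0.976 (permutation p = 2e-05, adjusted p = 0.00088). With IL5RA it was 0.943 (permutation p = 9e-05, adjusted p = 0.00121) and rho 0.830 (permutation p = 0.00476, adjusted p = 0.0349). Without fetuses 6 and 7 these values of r were 0.865 and 0.878. Outside the 44 relations, the r of MPO was 0.962 with PADI4, 0.935 with CEBPE and -0.889 with the monocyte marker CD14. Those 3 values were not tested. ITGAM had an r of 0.839 with ALOX15 (permutation p = 0.00440, adjusted p = 0.0242) and of 0.792 with MPO (permutation p = 0.0108, adjusted p = 0.0432), with rho at 0.685 (permutation p = 0.0347, adjusted p = 0.170) and 0.576 (permutation p = 0.0894, adjusted p = 0.328). With IL5RA its r was 0.760 and did not pass (permutation p = 0.0190, adjusted p = 0.0697, rho 0.491), and it was 0.435 without fetuses 7 and 9. Without those libraries the first 2 values dropped to 0.647 and 0.468, so the relations of ITGAM rest in part on those libraries. The negative r of S100A8 with IL5RA, -0.803 (permutation p = 0.00946, adjusted p = 0.0416, rho -0.600), was -0.127 without fetuses 3 and 7 and rests on those 2 libraries. The low counts of LTF and ELANE limit their values.

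**Figure D3:**
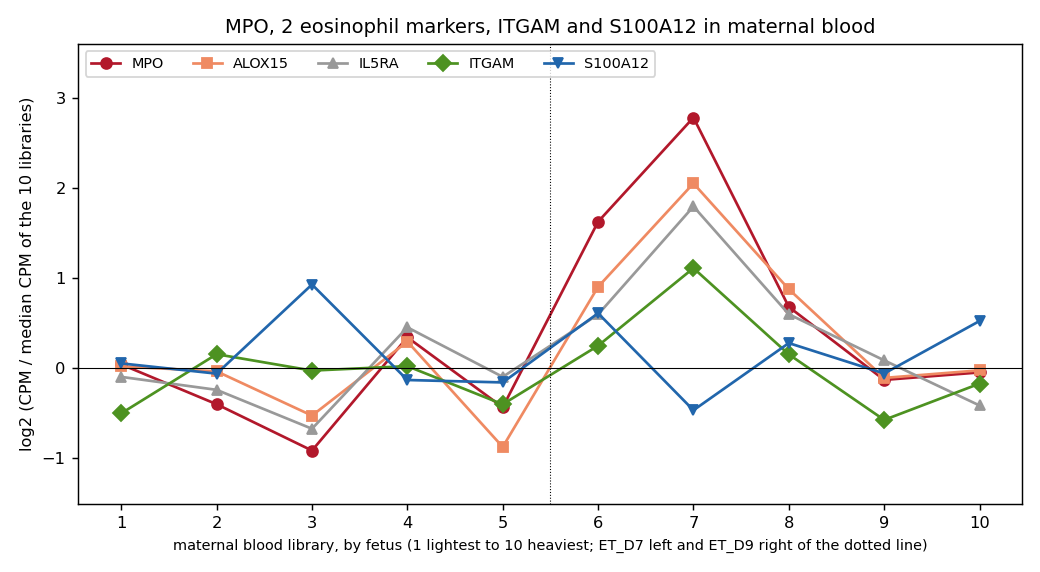
Level of MPO, of the eosinophil markers ALOX15 and IL5RA, of ITGAM and of S100A12 in each maternal blood library, as log2 of CPM over the median of the 10 libraries, with libraries ordered by fetus and the transfer groups parted by a dotted line. MPO, ALOX15 and IL5RA rise together in fetuses 6 to 8 and peak in fetus 7, where S100A12 is lowest.

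**Figure D4:**
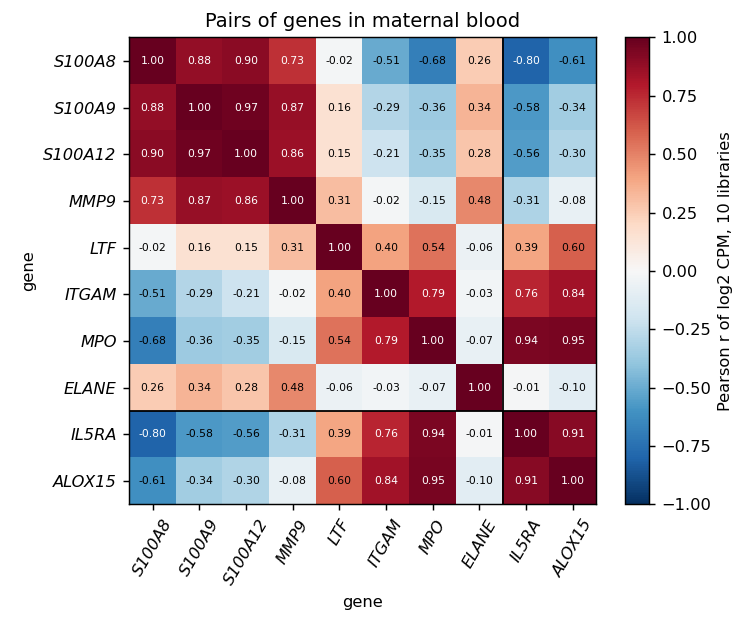
Pearson r of log2 CPM over the 10 maternal blood libraries for each pair of the 8 genes and for IL5RA and ALOX15 (right of and below the black lines), on a colour scale from -1 to 1. The calgranulins and MMP9 form a block with r from 0.732 to 0.974, and MPO has an r of 0.949 with ALOX15 and 0.943 with IL5RA; ITGAM has 0.839 and 0.760, the last of which did not pass the test.

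The 10 genes most alike in blood to the mean standardized level of the 8 genes, among 16276 others, were MEFV (r = 0.909), P4HA1, MRPS15, NFAM1, DHRS9, LOC101903857, UBE2B, LITAF, MXD1 and BCL6 (r = 0.847). MEFV encodes pyrin, an inflammasome protein of neutrophils and monocytes. These values describe 10 libraries and were chosen as the highest of many. When the ranking was made to MPO alone, a choice made after the values were seen, the leading genes were SYTL1 (r = 0.988), SMPD3, CKAP4, SEPTIN11 and HK3, with PADI4 at rank 7, ALOX15 at 20, IL5RA at 28, CEBPE at 39 and ITGAM at 456 of 16283 genes. S100A8 stood at rank 15777. To the mean of the 3 calgranulins the leading genes were RAB3D (r = 0.952), TIAM2, SNX18 and BCL6.

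The fetal liver held transcripts of 7 of the 8 genes in every library. S100A12 was at 58.2, 52.8, 115, 62.4 and 74.0 CPM in the livers of fetuses 1 to 5 and at 63.3, 58.1 and 75.8 CPM in those of fetuses 8 to 10. Fetus 3 stood above the others, and the ET_D9 livers lay within the ET_D7 range. S100A9 was at 31.3, 28.5, 28.3, 19.2 and 26.4 CPM in ET_D7 and at 20.6, 14.8 and 14.5 CPM in ET_D9. S100A8 ranged from 6.89 to 15.4 CPM. MPO was at 4.16, 4.05, 9.30, 4.02 and 3.45 CPM in ET_D7 and at 1.56, 1.40 and 1.77 CPM in ET_D9. ELANE ranged from 0.419 to 7.77 CPM, or 8 to 132 counts, and LTF from 2.47 to 11.2 CPM. MMP9 had 0 to 2 counts per liver library.

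ITGAM fell into 2 ranges in the liver. It had 74, 79, 77, 29 and 70 counts in fetuses 1 to 5 and 5, 3 and 3 counts in fetuses 8 to 10. In CPM it was at 2.05 to 4.53 in ET_D7 and at 0.150 to 0.211 in ET_D9. Given the 867 liver genes that had at most 2 counts in 1 library and at least 300 in another, the part of such steps in this difference was not tested.

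On a straight line in fetal weight, 2 of the 7 genes tested in the liver fell, at an adjusted p under 0.05. Of all 16605 genes, 2.23% had a slope in either direction. The filter of at least 10 counts in 4 libraries admits genes present only in the 5 ET_D7 livers. Genes present only in the 3 ET_D9 livers cannot pass it, so falling and rising genes were not tested on equal terms. ITGAM passed the filter only through its ET_D7 counts. ITGAM fell by 1.25 on the log2 scale per 0.1 g (SE 0.19, adjusted p = 0.0163, edgeR) and S100A9 fell by 0.26 (SE 0.052, adjusted p = 0.0394, edgeR). At an unadjusted p under 0.05 there were 3 of 7, with MPO at -0.50 (SE 0.16, adjusted p = 0.131, edgeR), against 17.2% of all genes. The median slope of the 7 was -0.22, against -0.01 over all genes. DESeq2 called 3 of the 7, MPO included, and 1442 genes in all, where edgeR called 371. With the near-identical livers of fetuses 1 and 2 averaged, ITGAM passed (adjusted p = 0.0230, edgeR) and S100A9 did not (slope -0.26, adjusted p = 0.115, edgeR). With the liver of fetus 9 also left out neither passed (adjusted p = 0.123 for ITGAM and 0.538 for S100A9, edgeR), at slopes of -1.28 and -0.26. Leaving out fetus 9 or 10 alone ended both calls, and leaving out fetus 1, 2, 5 or 8 ended that of S100A9. Over these fits without 1 library the slopes stayed between -1.36 and -1.16 for ITGAM and between -0.27 and -0.24 for S100A9. With the transfer group as a covariate neither passed, with the slope of S100A9 at -0.25 (adjusted p = 0.713, edgeR) and that of ITGAM at -0.29 (adjusted p = 0.882, edgeR). Weight and transfer group cannot be told apart here. The slope of S100A12 was -0.04 (SE 0.086) and that of S100A8 -0.02 (SE 0.11). Beside the 8 genes, 4 genes of the other lists fell, and none of those tested rose. They were OLFM4, a glycoprotein of the specific granules (log2 slope -0.72, SE 0.13, 1 of 11 tested), CYBA of the NADPH oxidase (-0.45, SE 0.093, 1 of 6), the complement gene C1QC of macrophages (-0.23, SE 0.042, 1 of 11) and GATA2, a transcription factor of progenitors, mast cells and basophils (-2.75, SE 0.41, 1 of 3). GATA2 ran from 0 to 1260 counts over the livers and is itself 1 of the 867 genes with such steps. GFI1, of the granulocyte regulators, had the opposite step and was left out by the filter on low counts. Its mean was 0.0107 CPM in the ET_D7 livers and 4.74 CPM in the 3 ET_D9 livers.

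Across organs, the liver exceeded both the heart and the libraries labelled gonads for 7 of the 8 genes at an adjusted p under 0.05, against 23.1% of 25095 genes, and the same number passed at an unadjusted p under 0.05, against 25% of all genes. MMP9 was the exception. For S100A12 the liver averaged 72.0 ± 20.4 CPM (SD, n = 7), the heart 0.798 ± 0.820 (SD, n = 9) and the labelled gonads 0.456 ± 0.114 (SD, n = 8). Its log2 difference was 6.42 from the heart (SE 0.45, adjusted p = 5.09e-13, edgeR) and 7.26 from the labelled gonads (SE 0.46, adjusted p = 5.99e-14, edgeR). S100A9 had a mean of 21.9 ± 6.32 CPM in the liver, 0.248 ± 0.273 in the heart and 0.185 ± 0.105 in the labelled gonads. S100A8 had 141 to 462 counts in the liver, and 0 in 6 of 9 hearts and in 7 of 9 labelled gonads. No heart library had more than 26 counts of S100A8 and no library labelled gonads more than 4.

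MPO and ELANE were also highest in the liver. MPO was at 3.66 ± 2.75 CPM in the liver (SD, n = 7), with a log2 difference of 6.14 from the heart (SE 0.84, adjusted p = 3.60e-07, edgeR) and 3.59 from the labelled gonads (SE 0.70, adjusted p = 6.80e-05, edgeR). ELANE was at 2.74 ± 2.46 CPM in the liver, higher by 6.33 on the log2 scale than in the heart (SE 1.06, adjusted p = 8.33e-06, edgeR) and by 5.34 than in the labelled gonads (SE 0.95, adjusted p = 1.91e-05, edgeR). PRTN3, proteinase 3, the neighbour of ELANE in the gene table, had 36 to 77 counts in the liver, 0 in every heart library and at most 2 in the labelled gonads. ITGAM was higher in the liver by 3.24 (SE 0.74) than in the heart and by 4.27 (SE 0.77) than in the labelled gonads. The 3 ET_D9 livers, at 3 to 5 counts, lay within the range of the hearts. LTF had the smallest differences of the 7 genes, 1.69 from the heart (SE 0.33) and 2.61 from the labelled gonads (SE 0.34).

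**Figure D5:**
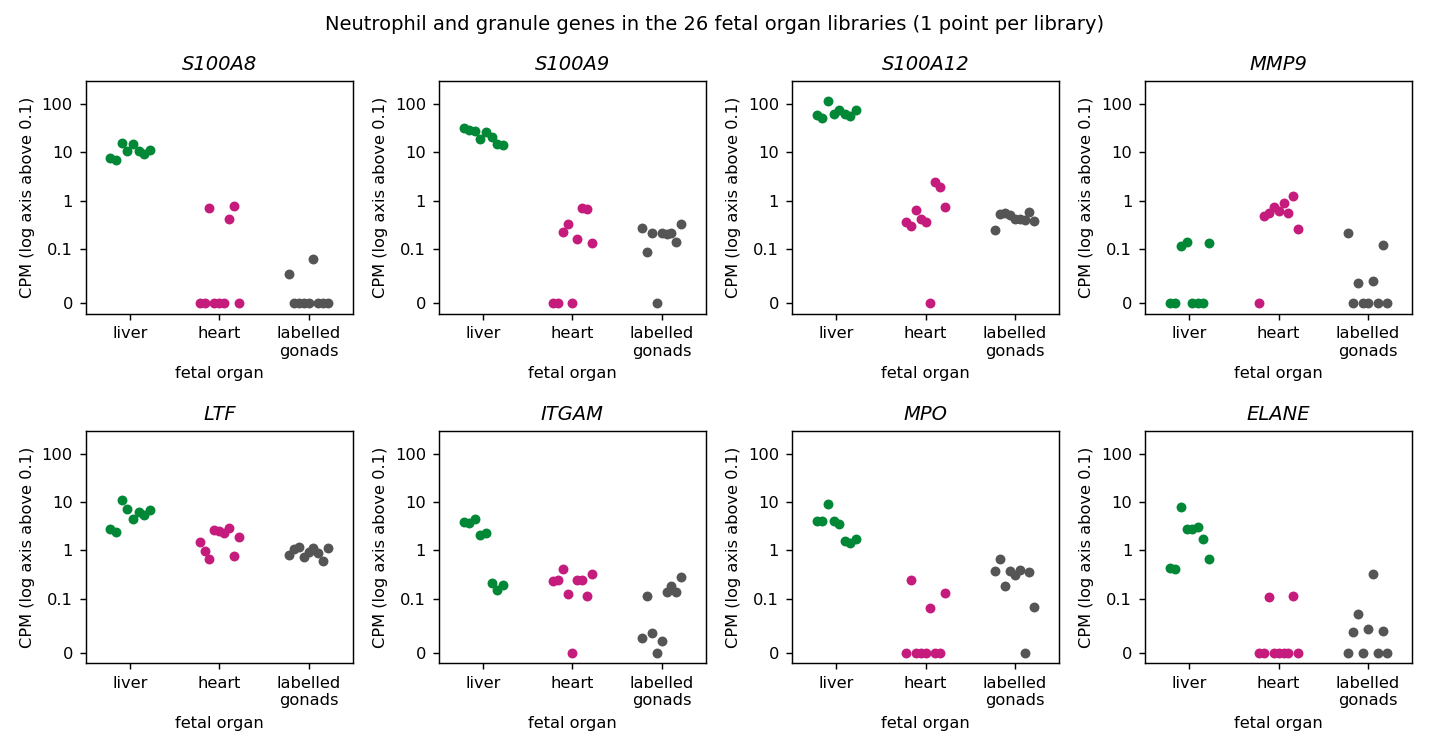
Level (CPM, log axis above 0.1 and linear below) of each of the 8 genes in the fetal liver (8 libraries), heart (9) and the libraries labelled gonads (9), with 1 point per library in order of fetal weight. All genes but MMP9 are higher in the liver, the ET_D9 livers (last 3 points) have the lowest ITGAM, and MMP9 is highest in the heart.

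Between the heart and the labelled gonads, 4 of the 8 genes differed at an adjusted p under 0.05, where 46.6% of all genes did, and 5 at an unadjusted p under 0.05, where 53% did. S100A8 (log2 difference 3.72, SE 0.94), MMP9 (3.65, SE 1.02) and LTF (0.92, SE 0.32) were higher in the heart, and MPO was lower there (-2.55, SE 0.77, adjusted p = 0.00733, edgeR). These differences rest on few counts. MMP9 had 0 to 22 counts in the heart and 0 to 8 in the labelled gonads, and MPO 0 to 4 and 0 to 35. The call of LTF ended without the libraries of fetus 5 or of fetus 8 (adjusted p = 0.0620 and 0.0638, edgeR), while its log2 difference was at least 0.795 whichever fetus was left out. MMP9 was higher in the heart than in the liver (log2 difference -3.64 for liver minus heart, SE 1.13, adjusted p = 0.00708, edgeR).

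The neutrophil lists hold MPO, ELANE, LTF, MMP9 and ITGAM beside other genes. Some of their genes can also be expressed by other liver cells, hepatocytes included, and the part of those cells was not tested. Higher in the liver than in either other organ, where 23.1% of all genes were, stood 6 of 8 azurophil granule genes, 11 of 12 specific granule genes, 3 of 5 gelatinase granule genes, 11 of 12 receptor and adhesion genes, 3 of 6 NADPH oxidase genes and 5 of 7 granulocyte regulators. The median log2 difference from the heart was 4.70 for the azurophil list, 6.54 for the specific, 3.26 for the gelatinase, 2.99 for the receptor, 0.84 for the oxidase and 3.38 for the regulator list, and 5.86 for the 8 genes, against 0.00 over all genes. Of the specific granule genes, LCN2, which binds bacterial iron carriers, was at 43.9 to 121 CPM in the liver, with a log2 difference of 6.72 from the heart (SE 0.32). CAMP, a cathelicidin, a precursor of antimicrobial peptides, had 200 to 675 counts in the liver and at most 6 in any heart library. Cathelicidin genes are near copies of one another, so their single counts are uncertain. CD177, a surface protein of neutrophils, had 293 to 1091 counts in the liver. SPI1, a transcription factor of myeloid cells, was higher than in the heart by 3.38 on the log2 scale (SE 0.25). CEBPE had 12 to 91 counts in the liver and at most 2 in any heart library.

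Markers of other cells differed among themselves in the liver. The monocyte and macrophage markers were higher there in 10 of 11 genes, with a summed level of 245 to 406 CPM against 23.8 to 38.5 CPM in the heart, and ITGAM and SPI1 are also expressed by those cells. The erythroid markers were higher in 10 of 10 genes and the platelet markers in 5 of 5. Of the lymphocyte markers 1 of 9 was higher, CD79A, at 0 to 643 counts. The T cell genes CD3D, CD3E, CD3G and CD2 had at most 22 counts in any liver library, and 7 of the 9 markers had at most 25. Of the eosinophil markers 0 of 2 were higher in the liver, and IL5RA and ALOX15 were both lower than in the heart, with log2 differences of -2.84 and -1.29. Near the share of 23.1% over all genes lay the basophil and mast cell markers with 2 of 6 higher and the gonad markers with 2 of 8. Of the progenitor markers 3 of 5 were higher, of the hepatocyte markers 6 of 6 and of the cardiomyocyte markers 0 of 5. The part of macrophages in the levels of the 8 genes was not tested.

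The 10 genes most alike over the 8 livers to the mean of MPO and ELANE were led by ADGRF3 and SOX11 (r = 0.980), TTN (r = 0.971) and NDRG4 (r = 0.969). The list otherwise held EPB41L3, CYP2D43, DAPK2, COPG2, SERINC3 (r = 0.956) and a gene with no symbol, and no gene of the granule or receptor lists. MPO and ELANE were both highest in the liver of fetus 3, and 2 of the 8 libraries were near-identical.

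The counts of some granule and receptor genes, chosen after their values were seen, are set side by side for blood and liver. LCN2 had 344 to 865 counts in blood and 671 to 2292 in the liver, and OLFM4 62 to 456 and 9 to 80. MMP9 had 292 to 1036 counts in the blood libraries and at most 2 in any liver. CAMP had at most 2 counts in any blood library and at least 200 in every liver. CD177 had 2 to 62 counts in blood and PGLYRP1 2 to 58, against at least 293 and 271 in every liver. PRTN3 had 0 counts in all 10 blood libraries. Other genes of the same lists lay the other way. LYZ of the azurophil list had 33844 to 90959 counts in blood and 0 to 20 in the liver. Of the specific list, CHI3L1 had 1151 to 5240 counts in blood and 0 to 15 in the liver, and HP 664 to 2372 and 90 to 267. CXCR2, the receptor for interleukin 8 on mature neutrophils, had 2020 to 12844 counts in blood and 0 to 24 in the liver. These values come from different kits and from mother and fetus, and no test was made between them.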

How the data were processed

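The authors sequenced paired-end libraries of 36 samples, trimmed reads with Trimmomatic, mapped them with STAR (2.7.0b) to ARS-UCD1.3 and deposited counts per Entrez gene from featureCounts (Subread 2.0.3); whole-number raw counts were used as deposited. Strand, multi-mapping and read-pair settings are not given in the sources used here. Symbols came from the RefSeq gene table. Tests used edgeR 4.0.16 (quasi-likelihood, TMM), with DESeq2 1.42.0 as an alternative. They took genes with at least 10 counts in 4 libraries of the tissue, or at least 1 count over the organ libraries. On simulated data only edgeR was tried, for the blood transfer groups and for the straight line in fetal weight in blood and liver. DESeq2, the spline and the organ tests were not tried on simulated data. Weight entered as a line (per 0.1 g) or a spline with 3 degrees of freedom. Libraries of different organs were paired by fetus: deviations from organ means of the same fetus correlated at a median of 0.024 over 23 pairs, and -0.007 over 202 pairs of different fetuses. Members, lists and tests were chosen with earlier results of these data known. Named genes were all members, up to 4 per list by smallest p in each comparison, the 10 most alike, and those said to be chosen after their values were seen; CD177, PGLYRP1, CXCR2, PRTN3, CCR3 and the tissue markers were also named for their counts. P-values measure the spread between libraries, 1 per animal and tissue. The main fits took all 8 livers and 9 labelled gonads, the near-identical pairs included, so there these are not all independent animals.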

Additional observations from a re-analysis of the deposited data

Results flagged for a closer look

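In each tissue, the highest and lowest libraries of each gene were compared with the rest by Dixon's ratio, in 27 sets with at least 1 library of 10 or more counts. The critical value was passed in 7 sets, each time by the highest library. Its nominal rate of about 1 in 20 assumes normally distributed values, which was not tested for these CPM. The sets also share libraries, so the 7 sets cannot be read as an excess over that rate. In maternal blood the highest library stood apart for S100A8 (80.1 CPM in fetus 3, next 53.1 CPM), ITGAM (647 CPM in fetus 7, next 356 CPM) and MPO (73.8 CPM in fetus 7, next 33.1 CPM). In the liver it was fetus 3 for S100A12 (115.0 CPM, next 75.8 CPM), MPO (9.30 CPM, next 4.10 CPM) and ELANE (7.77 CPM, next 3.12 CPM), with the livers of fetuses 1 and 2 as 1 sample. In the libraries labelled gonads it was fetus 7 for ELANE (0.323 CPM, or 16 counts, next 0.0722 CPM).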

How the results depend on the processing

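Averaging near-identical libraries, also leaving out weighted-sum libraries, and leaving out the muscle libraries were alternatives chosen after seeing the data. Of the counts of the 8 genes, 36 values under other settings stayed within 1.5 times the value given and 4 did not; with 1 library left out these were 51 and 7. In the liver, the 2 genes with a slope became 1 with no filter on low counts or with the near-identical libraries averaged, and 0 with transfer group as a covariate or with the weighted-sum library also left out; without 1 library the count was 0 to 2 (0 without fetus 9 or 10). In blood the spline count was 0 to 1 without 1 library (MPO without fetus 8). Between heart and labelled gonads it was 3 to 5, with LTF lost without fetus 5 or 8 and S100A12 gained without fetus 6.

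In blood, the slopes that changed sign were those of S100A12 with RLE size factors (-0.000191), DESeq2 (-0.000186), depth class as a term (-0.0316) and the 2 libraries with muscle transcripts left out (-0.0386), of S100A9 with the depth term (-0.0182) and without the muscle libraries (-0.0157), and of LTF without them (-0.0936). With transfer group as a covariate slopes turned to 0.0613 for S100A8, -0.0505 for S100A9, -0.0234 for S100A12, -0.675 for LTF, -0.277 for ITGAM, -0.771 for MPO and -0.0115 for ELANE. The transfer group difference of S100A12 turned to -0.0521 with the depth term and -0.125 without the muscle libraries. In the liver, slopes turned with the covariate to 0.585 for S100A8, 0.454 for S100A12, 0.309 for MPO and 0.707 for ELANE, and that of LTF to -0.0119 with near-identical libraries averaged. None of these passed the adjusted threshold before the change, and the cause was not tested.

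Without 1 library, the blood slope ran from -0.106 to 0.0115 for S100A8, from -0.0735 to 0.0706 for S100A9, from -0.0725 to 0.0525 for S100A12, from -0.064 to 0.0262 for MMP9, from -0.102 to 0.247 for LTF, from -0.0363 to 0.129 for ITGAM, from 0.0203 to 0.507 for MPO and from -0.00362 to 0.278 for ELANE. The transfer group difference ran from -0.309 to 0.0217 for S100A8, from -0.0202 to 0.414 for S100A9, from -0.0786 to 0.294 for S100A12, from -0.0196 to 0.3 for MMP9, from 0.416 to 1.34 for LTF, from 0.0667 to 0.533 for ITGAM, from 0.918 to 1.84 for MPO and from 0.0899 to 0.622 for ELANE. The liver slope ran from -0.083 to 0.031 for S100A8, from -0.0857 to 0.0233 for S100A12, from -0.0218 to 0.194 for LTF and from -0.405 to 0.0861 for ELANE. MMP9 ran from -0.564 to 0.967 for liver minus labelled gonads, and ELANE from -2.02 to 0.127 for heart minus labelled gonads.

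With fetus as a replicate block, the liver again exceeded both organs for 7 of the 8 genes and 4 differed between heart and labelled gonads. The pairing changed no call of the 8 genes at the adjusted threshold. At an unadjusted p under 0.05, the count between heart and labelled gonads was 4 with the block and 5 without it (edgeR). Over all genes, the blood spline called 21, and 487 by DESeq2, 0 with the depth term, 0 without the muscle libraries and 4 to 134 without 1 library. The blood line called 0, and 108 by DESeq2 and 1 with no filter or with the depth term; the transfer group called 0, and 65 by DESeq2. The liver line called 371, and 1442 by DESeq2, 157 with no filter, 106 with near-identical libraries averaged and weighted-sum libraries left out, 0 with the covariate and 23 to 740 without 1 library. Few counts limit LTF and ELANE in blood, MMP9 and the ET_D9 values of ITGAM in the liver, and all 8 genes in the heart and labelled gonads.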
